A study of Mus musculus with 6 samples.

Results

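RNA of the nuclear-encoded respiratory chain genes was compared between tumours of mice given AZD7507 and tumours of mice given vehicle. The set was proposed with results of these data known, and its genes were then taken by symbol alone. A gene was a member if its symbol starts with Nduf, Sdha, Sdhb, Sdhc, Sdhd, Uqcr or Atp5, or with Cox followed by a digit from 4 to 8. Symbols starting with Gm and names of numbered or unnumbered -ps pseudogenes were left out, which removed 1 match, Uqcrh-ps2. Of the 16344 genes in the table, 95 were members. They comprised 46 genes of complex I, 8 of complex II, 8 of complex III, 16 of complex IV and 17 of complex V. The annotation lists 91 of them as protein-coding and 4 as processed pseudogenes (Ndufa11b, Ndufb4c, Ndufs6b and Cox6c2). Some accessory factors that share the prefixes, such as the Ndufaf and Sdhaf assembly factors, are members too.

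All 6 tumours came from 60577, a murine cell line of high-grade serous ovarian cancer that was placed in the abdominal cavity of syngeneic mice and left for 21 days. Both groups are labelled with the same course: carboplatin, a platinum drug, once a week for 3 cycles before the gavage began. The AZD7507 group (n = 3) then received AZD7507, an inhibitor of the colony-stimulating factor receptor Csf1r, by daily gavage for 84 days. The Vehicle group (n = 3) is labelled only as vehicle in vivo, and no gavage schedule is stated for it. Tumours were taken at humane endpoint, and no strain, age or sex of the mice is stated in the labels. The model is a single transplanted line, and a bulk tumour also holds host cells. Healthy omentum, named in the protocol, was not analysed here. The drug target Csf1r had log2 RPKM (reads of a gene, scaled to its length and to the depth of the library) of 2.57, 2.78 and 1.71 in AZD7507 tumours, against 4.85, 5.47 and 4.59 in Vehicle tumours.

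Oxidative phosphorylation is carried out by protein complexes of the inner mitochondrial membrane. Complex I takes electrons from NADH and complex II takes them from succinate; coenzyme Q carries them to complex III and cytochrome c carries them on to complex IV, which reduces oxygen. Complexes I, III and IV pump protons, and complex V, the ATP synthase, uses the proton gradient to make ATP. Complex II is wholly nuclear-encoded, while the other complexes also hold subunits encoded on mitochondrial DNA. None of the 37 mitochondrially encoded genes listed for comparison had a value in the table, so the values below concern the nuclear part alone.

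Libraries AZD7507 2 and Vehicle 2 stood apart from the others through pancreatic acinar genes. The summed level of the 8 measured acinar markers of 10 listed was 10.1, 4820 and 2.99 RPKM in AZD7507 tumours 1, 2 and 3, against 6.64, 4340 and 2.30 RPKM in Vehicle tumours 1, 2 and 3. Results are therefore also given without these 2 libraries. The 8 epithelial tumour markers (Epcam, Krt7, Krt8, Krt18, Krt19, Muc16, Pax8 and Wt1) were all measured, with a mean log2 RPKM of 4.70 ± 0.16 in AZD7507 tumours and 4.44 ± 0.32 in Vehicle tumours (SD, n = 3 each). All 10 macrophage markers lay below 0 in the difference, AZD7507 minus Vehicle, and 6 of them fell at an adjusted p under 0.05 in limma. Their summed level ran from 82.0 to 200 RPKM in AZD7507 tumours and from 418 to 675 RPKM in Vehicle tumours, and none was at 0. In bulk tumours, fewer cells of a type and less RNA per cell cannot be told apart. The epithelial tumour markers all lay above 0, with a median difference of 0.30 log2 units. Their library means overlapped between the groups, with Vehicle 3 at 4.71 and AZD7507 2 at 4.55. Pax8 was very low, with a mean log2 RPKM of -3.11 in AZD7507 tumours and -3.20 in Vehicle tumours. Of 6 adipocyte markers 4 were measured, with a median of 0.59 and 3 above 0. Fibroblast markers had a median of -0.21 (1 of 6 above 0) and pericyte markers -0.16 (2 of 5). None of these markers passed the adjusted threshold. Brown adipocyte markers had no value (0 of 3), and of 7 striated muscle markers only Tnni3 had one. The part of these cell types in the results below was not tested.

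No member rose or fell at an adjusted p under 0.05 (limma, Benjamini-Hochberg over all 16344 genes). Over all genes 0.355% passed that threshold in either direction, 0.0184% as higher and 0.337% as lower in AZD7507 tumours. The smallest adjusted p among members was 0.275, for Ndufa4. At an unadjusted limma p under 0.05, 8 members were higher (8.42%) against 3.31% of all genes, and 1 member was lower (1.05%) against 5.49% of all genes. All 3 AZD7507 values lay above all 3 Vehicle values for 19 members (20%), compared with 7.34% of all genes. The reverse held for 1 member (1.05%), Atp5k, compared with 8.02% of all genes. With 3 tumours against 3, an exact permutation test of a single gene cannot give a two-sided p below 0.1.

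Most members sat slightly above 0. The difference was above 0 for 74 of 95 members (77.9%), against 54.5% of all genes, and below 0 for 21 (22.1%), against 45.5% of all genes. The median difference of the members was 0.14 log2 units, a 1.10-fold ratio, against 0.03 over all genes. The 95% interval of the difference excluded a change of 1 log2 unit in either direction for 89 of 95 members. The exceptions were Ndufaf2, Ndufs6b, Cox7a1, Cox6b2, Ndufa4l2 and Atp5k. Across 16 alternative fits, 50 members stayed above 0 and 4 stayed below 0 in every one. The fits with another variance prior or a minimum level leave each difference unchanged, so they could not change a sign. The summed level of all members was 1345, 1369 and 1346 RPKM in AZD7507 tumours, against 1193, 1361 and 1198 RPKM in Vehicle tumours. Vehicle 2 thus lay with the AZD7507 libraries in this sum, and the other Vehicle libraries lay below them.

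The count of members higher at an unadjusted limma p under 0.05 depended on single libraries. It was 22 without Vehicle 2, when 6.62% of all genes passed the same limit. It was 4 without AZD7507 2 (3.02% of all genes), 3 without AZD7507 3 (1.57%), 5 without Vehicle 1 (2.77%) and 4 without Vehicle 3 (2.81%). Without both acinar-rich libraries it was 18, and 7.59% of all genes passed. The median difference of the members moved less, between 0.12 and 0.18 log2 units with any 1 library left out, and it was 0.17 without both acinar-rich libraries. AZD7507 2 held the highest value of the 6 libraries for 36 members (37.9%), whereas it was highest for 19.0% of all genes. Vehicle 1 held the lowest value for 29 members (30.5%, against 17.4% of all genes) and Vehicle 3 for 26 (27.4%, against 15.4%). Vehicle 2 was lowest for 23 members (24.2%), below its share over all genes of 26.2%.

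**Figure D1:**
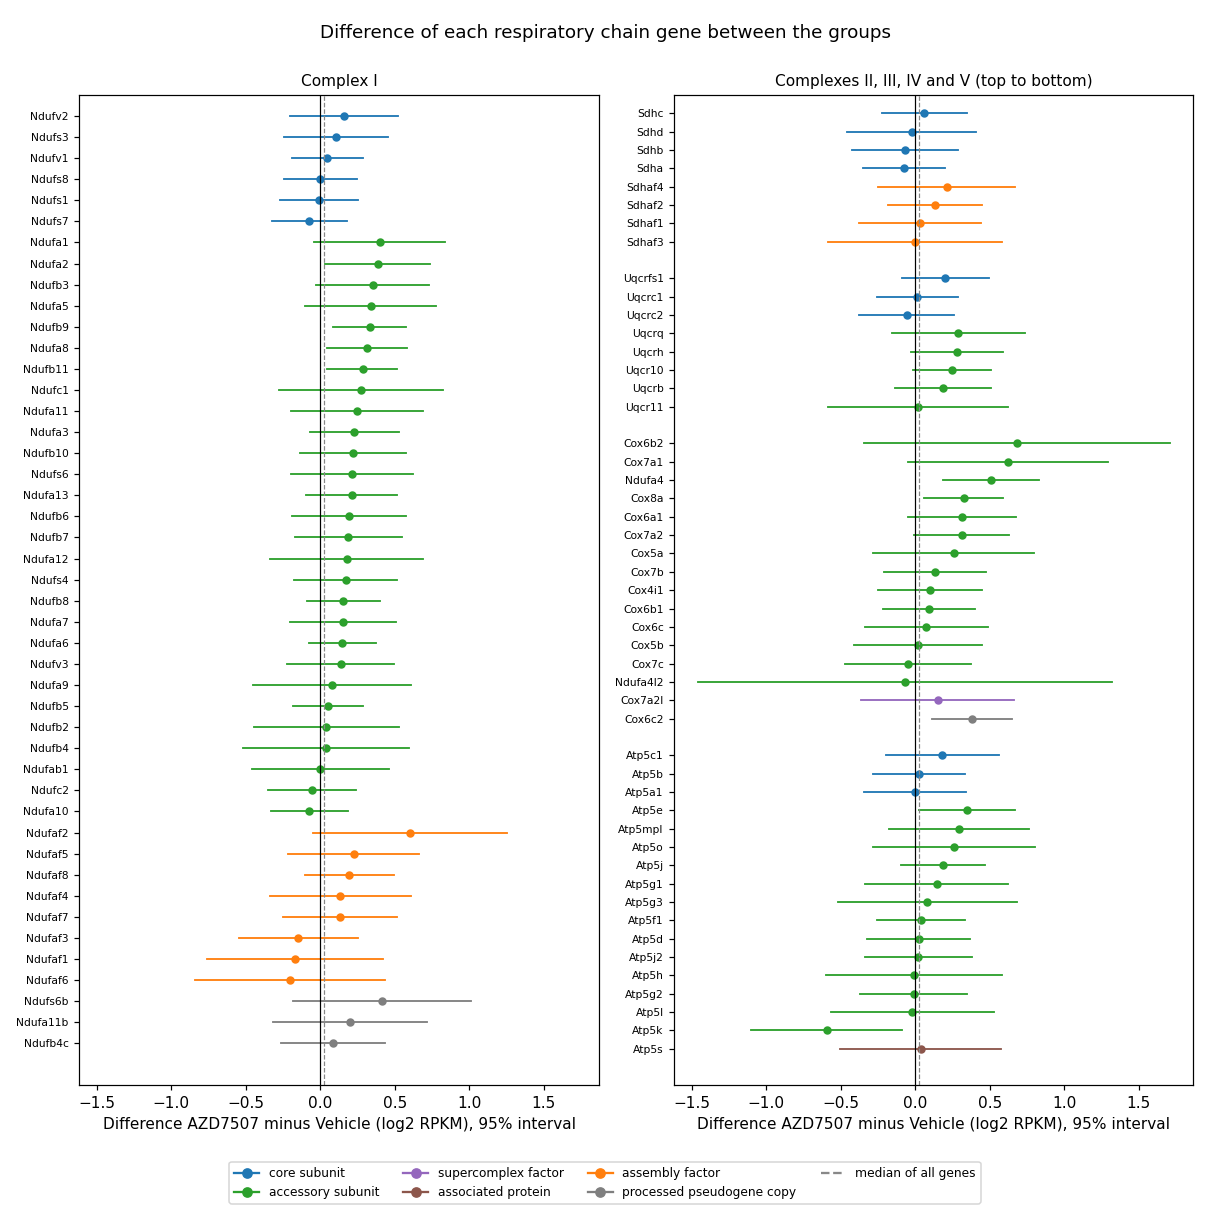
Difference in log2 RPKM, AZD7507 minus Vehicle, for the members with their 95% intervals (1 member is not drawn), ordered within complexes I to V. Most points lie above 0, the intervals of 9 members exclude 0 without adjustment, and no member passed the adjusted threshold.

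The promoters of 4 genes are shown because they belong to members described below and hold letters that nuclear respiratory factor 1 (NRF1) or ETS factors such as GABP, known regulators of respiratory chain genes, can bind. Each runs from 250 bases before to 50 bases after the annotated start of RNA, in RefSeq on GRCm38.p6, read 5′ to 3′ on the strand of the gene. The regions are chr19:7217567-7217866 for Cox8a and chr5:115348909-115349208 for Cox6a1, both on the minus strand. They are chr5:108434350-108434649 for Atp5k, on the minus strand, and chr4:140961021-140961320 for Sdhb, on the plus strand. Capitals mark exact matches to the NRF1 palindrome, the run of 10 capitals in Cox6a1 and Atp5k, or to the ETS core CCGGAAG, which reads CTTCCGG on the other strand.
Cox8a: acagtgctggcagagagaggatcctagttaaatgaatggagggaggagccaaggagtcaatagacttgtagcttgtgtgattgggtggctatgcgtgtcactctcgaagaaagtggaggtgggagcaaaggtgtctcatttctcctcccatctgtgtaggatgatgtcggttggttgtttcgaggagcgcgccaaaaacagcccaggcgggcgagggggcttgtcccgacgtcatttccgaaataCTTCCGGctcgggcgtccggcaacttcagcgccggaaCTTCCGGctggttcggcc
Cox6a1: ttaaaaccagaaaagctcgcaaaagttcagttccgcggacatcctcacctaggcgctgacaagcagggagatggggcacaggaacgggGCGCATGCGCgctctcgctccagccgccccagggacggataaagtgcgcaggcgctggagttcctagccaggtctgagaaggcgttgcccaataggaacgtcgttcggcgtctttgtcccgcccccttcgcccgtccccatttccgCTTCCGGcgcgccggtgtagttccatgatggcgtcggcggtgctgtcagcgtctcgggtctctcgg
Atp5k: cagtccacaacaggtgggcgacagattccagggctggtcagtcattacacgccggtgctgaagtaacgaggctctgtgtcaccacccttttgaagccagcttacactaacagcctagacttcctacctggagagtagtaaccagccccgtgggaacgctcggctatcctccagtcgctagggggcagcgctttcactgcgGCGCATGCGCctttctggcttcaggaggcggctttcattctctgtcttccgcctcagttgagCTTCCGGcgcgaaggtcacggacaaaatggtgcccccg
Sdhb: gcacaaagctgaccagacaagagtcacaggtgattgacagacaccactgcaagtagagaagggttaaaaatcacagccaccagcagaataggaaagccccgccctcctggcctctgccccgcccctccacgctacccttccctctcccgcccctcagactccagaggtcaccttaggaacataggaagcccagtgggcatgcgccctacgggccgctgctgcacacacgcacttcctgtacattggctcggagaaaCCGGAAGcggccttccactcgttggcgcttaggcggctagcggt
Cox8a, with 3 higher values in AZD7507 tumours, holds the ETS core at positions -5 and 33, given for the first base of a match and counted from the start. Cox6a1 holds the NRF1 palindrome at -162 and the ETS core at -16. Atp5k, the member whose AZD7507 values were all lower, holds the same pair of motifs, at -50 and 13. Sdhb, whose groups overlapped, holds the ETS core at 7.

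RefSeq promoters were found for 77 of the 95 members, 82 promoters in all. The NRF1 palindrome was in 7 of them (8.54%), against 0.971% of all 32851 promoters of the same length. The ETS core was in 21 (25.6%), against 8.86%. The core of YY1, another factor known to act on these genes, was searched as AAGATGG and CCATCTT, and it was in 12 (14.6%), against 6.34%. The members with a promoter are protein-coding. Of the 21263 promoters of protein-coding genes, 1.33% held the NRF1 palindrome, 11.6% the ETS core and 6.24% the YY1 core. No matches overlapped, both strands were searched, and a match is only a stretch of letters. Of the 77 members, 36 held any of these motifs, and Ndufa4, the member with the smallest adjusted p in limma, held none. Whether motifs go with the differences was not tested. Of 7 complex II members with a promoter, 5 held the ETS core, compared with 6 of 38 for complex I, 2 of 5 for complex III, 3 of 12 for complex IV and 5 of 15 for complex V. Counted per gene in the same way, 12.9% of protein-coding genes held it, near the share of 15.8% for complex I. Matches to the ETS core lay within 50 bases of the start in 18 of 25 cases, and 9 of 12 matches to the YY1 core lay in the first 50 bases after it.

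No test of a difference between the complexes was made. Median differences were 0.16 log2 units for complex I, 0.02 for complex II, 0.20 for complex III, 0.20 for complex IV and 0.04 for complex V, beside 0.03 for all genes. Complex I had 37 of 46 members above 0, complex II 4 of 8, complex III 7 of 8, complex IV 14 of 16 and complex V 12 of 17. Averaged over its members, complex IV had a mean log2 RPKM of 3.00, 2.96 and 3.08 in AZD7507 tumours, against 2.71, 2.76 and 2.85 in Vehicle tumours. Complex I had 2.49, 2.59 and 2.52 in AZD7507 tumours, against 2.39, 2.46 and 2.31 in Vehicle tumours. The groups did not overlap for these complexes, and no p is given for these means, because the gene set was proposed with results of these data known. For complex III the means were 3.30, 3.52 and 3.28 in AZD7507 tumours, against 3.15, 3.31 and 3.19 in Vehicle tumours. Complex II had 3.01, 2.90 and 2.89 in AZD7507 tumours, against 2.83, 3.00 and 2.86 in Vehicle tumours. Complex V had 2.86, 2.86 and 2.90 in AZD7507 tumours, against 2.79, 2.87 and 2.77 in Vehicle tumours. In complexes II, III and V the groups overlapped, each time through Vehicle 2. Without both acinar-rich libraries the medians lay closer together, at 0.17 for complex I, 0.12 for complex II, 0.18 for complex III, 0.26 for complex IV and 0.15 for complex V.

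**Figure D2:**
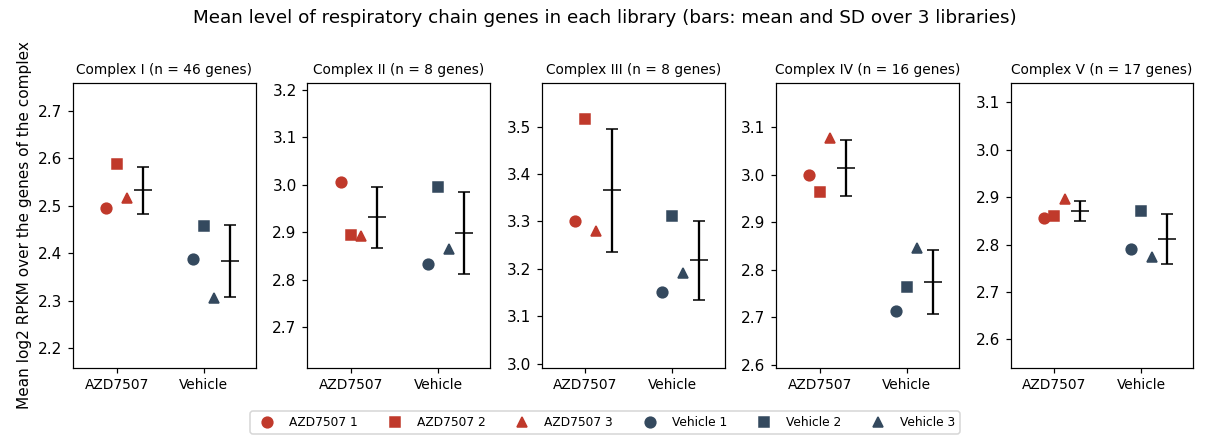
Mean log2 RPKM of the members of each complex in each library, AZD7507 left and Vehicle right, with the group mean and SD (n = 3 each). The groups do not overlap for complexes I and IV, and they overlap for complexes II, III and V.

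Complex I consists of a matrix arm, where NADH is oxidised and iron-sulfur clusters pass electrons to coenzyme Q, and a membrane arm, where protons move. Its 7 measured core subunits, all of the matrix arm, lay close to 0, with a median difference of 0.00 log2 units and 4 of 7 above 0. Ndufv1 carries the flavin that accepts electrons from NADH. Its log2 RPKM was 5.26, 5.12 and 5.11 in AZD7507 tumours, against 5.12, 5.13 and 5.09 in Vehicle tumours. The difference was 0.05 (SE 0.10, limma adjusted p = 0.933), and the groups overlapped. Ndufs1, the largest iron-sulfur subunit, had 3.78, 3.60 and 3.67 in AZD7507 tumours, against 3.71, 3.81 and 3.55 in Vehicle tumours, a difference of -0.01 (SE 0.11, adjusted p = 0.994). For Ndufs1 the 95% interval ran from -0.27 to 0.26 log2 units. Of the other core subunits, Ndufs3, Ndufs7, Ndufs8 and Ndufv2 lay between -0.07 for Ndufs7 and 0.16 for Ndufv2.

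The 28 accessory subunits of complex I surround this core and are needed for assembly and stability. Of these, 25 lay above 0, with a median difference of 0.19 log2 units, and in 8 of the 28 the groups did not overlap. Over all genes 54.5% lay above 0 and 7.34% were higher without overlap. Ndufb9, a subunit at the membrane arm (chr15:58933756-58939488, plus strand), had log2 RPKM of 5.17, 5.21 and 5.0 in AZD7507 tumours, against 4.80, 4.79 and 4.79 in Vehicle tumours. Every AZD7507 tumour was above every Vehicle tumour, the difference was 0.33 (SE 0.10), and the limma adjusted p was 0.383. Ndufb11, a membrane arm subunit encoded on the X chromosome, had 3.30, 3.46 and 3.40 in AZD7507 tumours, against 3.11, 3.17 and 3.03 in Vehicle tumours. Ndufa8, a subunit that faces the intermembrane space, had 3.58, 3.86 and 3.68 in AZD7507 tumours, against 3.40, 3.48 and 3.30 in Vehicle tumours. Neither gene had overlapping groups, with differences of 0.28 (SE 0.10, adjusted p = 0.463) and 0.31 (SE 0.12, adjusted p = 0.492). Ndufb11 has a near-identical copy elsewhere, so its reads may be split or misplaced.

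Ndufa2, a small subunit of the matrix arm, had log2 RPKM of 4.58, 4.47 and 4.55 in AZD7507 tumours, against 4.07, 4.46 and 3.92 in Vehicle tumours. Its groups met closely, since AZD7507 2 and Vehicle 2 differed by little while the other tumours lay well apart. The difference was 0.39 (SE 0.15, adjusted p = 0.521). Ndufa2 had the smallest adjusted p of any member, 0.116, without both acinar-rich libraries, and 0.0689 when libraries were weighted by their fit to the model. Groups that did not overlap were also seen for Ndufb3, Ndufa6, Ndufa11 and Ndufa13, whose differences ran from 0.15 to 0.35. Of these, Ndufb3 has a near-identical copy elsewhere. Below 0 lay Ndufa10, the acyl carrier Ndufab1 and Ndufc2, by at most 0.07 in size. Ndufa9, which lies near the coenzyme Q site, had its highest value in Vehicle 2 (3.69) and its lowest in Vehicle 3 (2.80), and the AZD7507 tumours lay between 3.16 and 3.37.

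Assembly factors build complex I without staying in it, and 8 were members. Ndufaf2, a relative of Ndufa12 that acts late in assembly, was the member with the lowest level. Its log2 RPKM was -1.31, -1.23 and -1.18 in AZD7507 tumours, against -1.75, -2.02 and -1.74 in Vehicle tumours. The groups did not overlap, and the difference was 0.60 (SE 0.28, limma adjusted p = 0.606). All 6 values lay under 1 RPKM, where each may rest on few reads. Ndufaf5, which modifies Ndufs7, and its partner Ndufaf8 also had no overlap, at 0.22 and 0.20. Ndufaf1, of the complex that assembles the membrane arm, lay at -0.17, Ndufaf3 at -0.15 and Ndufaf6 at -0.20, and their groups overlapped. Ndufaf4 lay at 0.14 and Ndufaf7, a methyltransferase, lay at 0.13.

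Complex II, succinate dehydrogenase, is also an enzyme of the citric acid cycle. Its catalytic subunit Sdha, the flavoprotein that oxidises succinate, had log2 RPKM of 4.81, 4.59 and 4.82 in AZD7507 tumours, against 4.90, 4.70 and 4.84 in Vehicle tumours. Sdhb, the iron-sulfur subunit, had 3.46, 3.52 and 3.23 in AZD7507 tumours, against 3.36, 3.75 and 3.32 in Vehicle tumours. The groups overlapped for both, with differences of -0.07 (SE 0.12, limma adjusted p = 0.903) for Sdha and -0.07 (SE 0.15, adjusted p = 0.934) for Sdhb. The membrane anchors Sdhc and Sdhd lay at 0.06 and -0.02, and Sdhd was highest in Vehicle 2 (5.45). The median of the 4 subunits was -0.05 log2 units.

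Among the complex II assembly factors, Sdhaf4, which protects flavin-bound Sdha, had log2 RPKM of 1.92, 1.90 and 2.20 in AZD7507 tumours, against 1.47, 2.15 and 1.77 in Vehicle tumours. The groups overlapped through Vehicle 2, and the difference was 0.21 (SE 0.20, limma adjusted p = 0.829), or 0.049 without Vehicle 1 and 0.39 without Vehicle 2. Sdhaf2, which attaches the flavin to Sdha, lay at 0.13 (SE 0.13, adjusted p = 0.849), or 0.032 without Vehicle 2 and 0.052 without AZD7507 1. The factors for the iron-sulfur subunit, Sdhaf1 and Sdhaf3, lay at 0.03 and -0.00. Sdhaf3 was one of the lowest members, between -0.90 and -0.70 in AZD7507 tumours and between -1.0 and -0.60 in Vehicle tumours. The median of complex II as a whole changed sign with the library left out, from -0.02 to 0.07 log2 units, and it was 0.12 without both acinar-rich libraries.

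In complex III, the Rieske iron-sulfur protein Uqcrfs1 accepts electrons from reduced coenzyme Q. Its log2 RPKM was 4.83, 5.10 and 4.82 in AZD7507 tumours, against 4.58, 4.75 and 4.80 in Vehicle tumours. The groups did not overlap, by a narrow margin, and the difference was 0.20 (SE 0.12, limma adjusted p = 0.724), or 0.11 without AZD7507 2. Uqcrc1, a large structural core protein, had 4.61, 4.72 and 4.49 in AZD7507 tumours, against 4.54, 4.73 and 4.51 in Vehicle tumours. Its difference was 0.01 (SE 0.12, adjusted p = 0.986), and that of its partner Uqcrc2 was -0.06. All 5 small accessory subunits lay above 0, with a median of 0.25 log2 units. Uqcr10 had 4.49, 4.64 and 4.38 in AZD7507 tumours, against 4.23, 4.35 and 4.19 in Vehicle tumours, without overlap and with a difference of 0.25 (SE 0.11, adjusted p = 0.593).

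Uqcrh, the hinge protein beside cytochrome c1, had log2 RPKM of 3.25, 3.44 and 3.17 in AZD7507 tumours, against 2.87, 3.21 and 2.94 in Vehicle tumours. Only Vehicle 2 reached into the AZD7507 range, and the difference was 0.28 (SE 0.13, limma adjusted p = 0.609). The small subunits Uqcrq and Uqcrb lay at 0.29 and 0.19 with overlap. Uqcr11 lay at 0.02, with values near 1 RPKM in every library. Outside the prefixes, the haem subunit Cyc1, cytochrome c (Cycs) and the haem lyase Hccs all lay above 0, with differences of 0.07, 0.11 and 0.24 and no call.

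Complex IV, cytochrome c oxidase, has its catalytic subunits on mitochondrial DNA, so none of the 16 members is catalytic. Ndufa4 was first assigned to complex I and is now known as a subunit of complex IV; on GRCm38 the gene spans chr6:11900292-11907497, minus strand. Its log2 RPKM was 2.41, 2.43 and 2.35 in AZD7507 tumours, against 2.09, 1.69 and 1.89 in Vehicle tumours. All AZD7507 tumours were above all Vehicle tumours. The difference of 0.51 (SE 0.14), a 1.42-fold ratio, had a limma adjusted p of 0.275, with a 95% interval from 0.19 to 0.83 before adjustment. The values of Ndufa4 were 0.41 to 0.61 with any 1 library left out.

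Cox8a, a small membrane subunit (chr19:7215153-7217616, minus strand), was the complex IV member with the highest level. It had log2 RPKM of 6.84, 6.74 and 6.78 in AZD7507 tumours, against 6.47, 6.36 and 6.57 in Vehicle tumours. No values of the groups overlapped, and the difference was 0.32 (SE 0.11, limma adjusted p = 0.456), a 1.25-fold ratio. Cox6a1, the isoform of most tissues, had 3.77, 3.74 and 3.69 in AZD7507 tumours, against 3.11, 3.69 and 3.47 in Vehicle tumours. AZD7507 3 and Vehicle 2 nearly met, and the difference was 0.31 (SE 0.15, adjusted p = 0.631). It was 0.16 without Vehicle 1 and 0.45 without Vehicle 2. Cox7a2 had 3.02, 3.42 and 3.35 in AZD7507 tumours, against 2.87, 3.06 and 2.92 in Vehicle tumours, with overlap at one end and a difference of 0.31 (SE 0.14, adjusted p = 0.577).

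Cox4i1, Cox5a and Cox6b1 showed smaller or less even differences. Cox4i1, a membrane-spanning subunit that takes part in regulation by ATP, had log2 RPKM of 5.33, 5.38 and 5.31 in AZD7507 tumours, against 5.02, 5.54 and 5.16 in Vehicle tumours. Cox5a, its neighbour on the matrix side, had 1.33, 1.24 and 1.56 in AZD7507 tumours, against 0.96, 1.57 and 0.81 in Vehicle tumours. Vehicle 2 was the highest library for both genes and the other Vehicle tumours were the lowest. The differences were 0.10 (SE 0.15, limma adjusted p = 0.901) for Cox4i1 and 0.26 (SE 0.23, adjusted p = 0.824) for Cox5a. Cox5a ran from 0.11 without Vehicle 3 to 0.49 without Vehicle 2. Cox6b1, which helps to join the dimer, had the same order, with a difference of 0.10 (SE 0.13, adjusted p = 0.889). Cox5b, Cox6c, Cox7b and Cox7c lay between -0.05 for Cox7c and 0.13 for Cox7b, all with overlap.

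Isoforms of particular tissues were measured for 2 complex IV subunits. Cox7a1, known as the heart and skeletal muscle isoform, had log2 RPKM of -0.42, 0.40 and -0.16 in AZD7507 tumours, against -0.79, -0.80 and -0.47 in Vehicle tumours. The groups did not overlap, the difference was 0.62 (SE 0.29, limma adjusted p = 0.604), and Cox7a1 lay 3.02 to 3.86 log2 units below Cox7a2 within each library. The difference of Cox7a1 was 0.39 without AZD7507 2, and leaving out both acinar-rich libraries gave 0.34. Cox6b2, known from testis, had 1.48, 1.6 and 1.71 in AZD7507 tumours, against 1.46, -0.21 and 1.48 in Vehicle tumours. Vehicle 2 alone was low: the difference of 0.68 (SE 0.44, adjusted p = 0.737) was 0.12 without it. The isoforms Cox4i2, Cox6a2 and Cox8b had no value under these symbols.

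Ndufa4l2, a paralog of Ndufa4 induced by hypoxia, varied most of the members between tumours. Its log2 RPKM was 2.86, 1.08 and 3.13 in AZD7507 tumours, against 1.55, 2.62 and 3.11 in Vehicle tumours. Each group held low and high values, the difference was -0.07 (SE 0.59, limma adjusted p = 0.987), and the interval ran from -1.46 to 1.32. It ranged from -0.51 without Vehicle 1 to 0.57 without AZD7507 2, and it was 0.67 without both acinar-rich libraries. Cox7a2l, which links complexes III and IV into supercomplexes, had 3.48, 4.20 and 3.41 in AZD7507 tumours, against 3.58, 3.69 and 3.37 in Vehicle tumours. Its difference of 0.15 (SE 0.22, adjusted p = 0.893) was set by AZD7507 2 and was -0.10 without that library.

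Cox6c2, which the annotation lists as a processed pseudogene, was the other complex IV member with a small unadjusted p. It had log2 RPKM of 4.95, 5.21 and 5.06 in AZD7507 tumours, against 4.78, 4.59 and 4.71 in Vehicle tumours, without overlap and with a difference of 0.38 (SE 0.12, limma adjusted p = 0.354). Its transcript sequence matches a gene elsewhere at 95% identity or more over at least 80% of its length. On the same log2 RPKM scale it lay above Cox6c, by 2.95, 3.25 and 3.12 in AZD7507 tumours and by 2.59, 3.04 and 2.77 in Vehicle tumours. Reads of such copies may be split or misplaced, so the level of either gene is uncertain. The pseudogene Ndufs6b lay 0.19 to 0.88 above Ndufs6 and Ndufb4c lay 0.46 to 1.41 above Ndufb4 over the 6 libraries. Ndufa11b lay on either side of Ndufa11, by 0.13, 0.02 and -0.25 in AZD7507 tumours and by -0.32, 0.18 and 0.18 in Vehicle tumours.

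**Figure D3:**
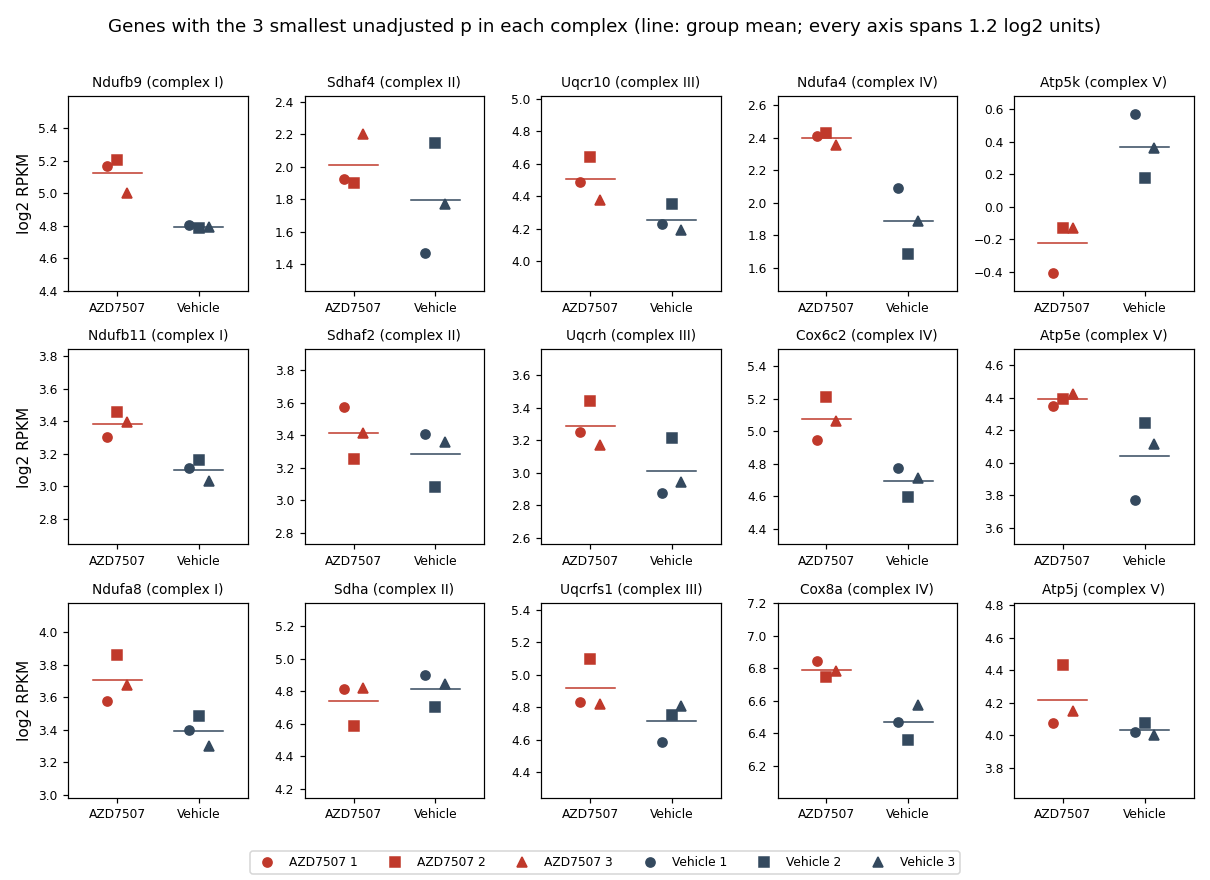
Log2 RPKM of the 3 members of each complex with the smallest unadjusted p in each library, AZD7507 left and Vehicle right, 1 point per tumour with the group mean. Ndufa4 and Cox8a show AZD7507 values above all Vehicle values, and Atp5k shows the reverse.

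Complex V has a catalytic head that makes ATP, a rotating ring in the membrane and stalks that join them. The head subunits Atp5a1 and Atp5b were the members with the highest levels. Atp5b, the catalytic beta subunit, had log2 RPKM of 7.32, 7.09 and 7.32 in AZD7507 tumours, against 7.08, 7.36 and 7.22 in Vehicle tumours. Atp5a1, the alpha subunit, had 7.04, 6.83 and 7.04 in AZD7507 tumours, against 6.96, 7.19 and 6.76 in Vehicle tumours. The groups overlapped, with differences of 0.03 (SE 0.13, limma adjusted p = 0.977) for Atp5b and -0.00 (SE 0.15, adjusted p = 0.996) for Atp5a1. Among AZD7507 tumours the acinar-rich library was the lowest for both genes, and among Vehicle tumours it was the highest. Atp5a1 lay at 0.17 without both of these libraries.

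Atp5e, the epsilon subunit of the central stalk, had log2 RPKM of 4.35, 4.39 and 4.43 in AZD7507 tumours, against 3.77, 4.25 and 4.11 in Vehicle tumours. All AZD7507 values were higher, and the difference was 0.35 (SE 0.14, limma adjusted p = 0.53), or 0.21 without Vehicle 1. Its stalk neighbours Atp5c1 (gamma) and Atp5d (delta) lay at 0.18 and 0.02 with overlap. In the peripheral stalk, Atp5j had 4.07, 4.43 and 4.15 in AZD7507 tumours, against 4.02, 4.08 and 4.0 in Vehicle tumours. Only AZD7507 1 fell inside the Vehicle range, and the difference was 0.18 (SE 0.12, adjusted p = 0.742), or 0.079 without AZD7507 2; leaving out both acinar-rich libraries gave 0.10. Atp5o, which fixes the stalk to the head, lay at 0.26 with all levels under 1 RPKM, and Atp5f1 lay at 0.04.

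Atp5k, the e subunit at the base of the enzyme, where dimers form (chr5:108433244-108434448, minus strand), was the member that stood lower in AZD7507 tumours. Its log2 RPKM was -0.41, -0.13 and -0.13 in AZD7507 tumours, against 0.57, 0.18 and 0.36 in Vehicle tumours. There was no overlap. The difference of -0.59 (SE 0.22) had a limma adjusted p of 0.478 and a 95% interval from -1.10 to -0.09, and it ran from -0.69 to -0.49 with any 1 library left out. Levels were near 1 RPKM, and a near-identical copy lies elsewhere in the genome. Its neighbours in the membrane part did not share this order: Atp5l lay at -0.02, Atp5j2 at 0.02 and Atp5mpl at 0.29, each with overlap.

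The c ring is encoded by 3 genes whose mature proteins are the same. Atp5g3 was the most abundant of them and followed the acinar-rich libraries: it had log2 RPKM of 5.64, 6.26 and 5.81 in AZD7507 tumours, against 5.70, 6.32 and 5.45 in Vehicle tumours. Atp5g1 and Atp5g2 were lowest in the acinar-rich library of each group, and lay 2.92 to 4.90 log2 units below Atp5g3 in every library. None of the 3 differed by more than 0.14 between groups. Atp5h, of the peripheral stalk, was lowest in the acinar-rich libraries too, with 3.36, 3.04 and 3.43 in AZD7507 tumours, against 3.50, 2.70 and 3.66 in Vehicle tumours. The associated protein Atp5s lay at 0.04. The median of complex V ran from 0.01 without AZD7507 1 to 0.10 without AZD7507 2 or Vehicle 2, and it was 0.15 without both acinar-rich libraries.

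Across the complexes, the 60 accessory subunits had a median difference of 0.18 log2 units and 51 lay above 0, while the 17 core subunits had a median of 0.00 and 9 lay above 0. This grouping was chosen after the values were seen and is a description. The classes are not alike between complexes. In complex V only Atp5a1, Atp5b and Atp5c1 count as core. Its c ring, delta, epsilon and peripheral stalk subunits count among 13 accessory subunits, which had a median of 0.04 with 9 above 0. In complex III the structural protein Uqcrc1 and its partner Uqcrc2 count as core. The accessory subunits include most of the short genes. The longest transcript of a member had a median of 1129 bases, against 3069 over all genes. When all genes were divided by length into 4 groups of like size, the shortest group held transcripts of up to 1834 bases. Its genes had a median difference of 0.06, and 2412 of 4077 lay above 0. The 69 members in that length group had a median of 0.19, with 57 above 0. In the next length group the 16 members had a median of 0.02, against 0.04 over all genes of that length. In the group after that the 8 members had 0.06, against 0.02, and the 2 members among the longest genes had 0.06, against -0.00. After each library was centred on genes of like length, the median of all members was 0.12, against 0.04 over all genes. In that fit 73 members lay above 0 (76.8%), against 56.9% of all genes. The part of transcript length in the members' values was not tested further.

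Levels, which RPKM gives per length, ranged widely among the members. Group means of log2 RPKM, turned back to RPKM, were 152 in AZD7507 tumours and 149 in Vehicle tumours for Atp5b. For Ndufaf2 these were 0.424 RPKM in AZD7507 tumours and 0.279 RPKM in Vehicle tumours. The order at the top was Atp5b, Atp5a1 and Cox8a, with mean log2 RPKM over the 6 libraries of 7.23, 6.97 and 6.63. The ranges of Atp5b and Atp5a1 over libraries overlapped, and so did those of Atp5a1 and Cox8a. A near-identical copy elsewhere was found for 22 members, 19 of them protein-coding. Protein-coding members with a copy had a median level of 1.88 log2 RPKM, against 3.20 for the 72 for which none was found. Ndufs6 and Ndufa11, described above beside pseudogenes of like name, count among these 72. Atp5l had 8 such copies and Atp5h and Uqcrb had 3 each. The median difference was 0.04 for protein-coding members with a copy and 0.15 for those without.

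**Figure D4:**
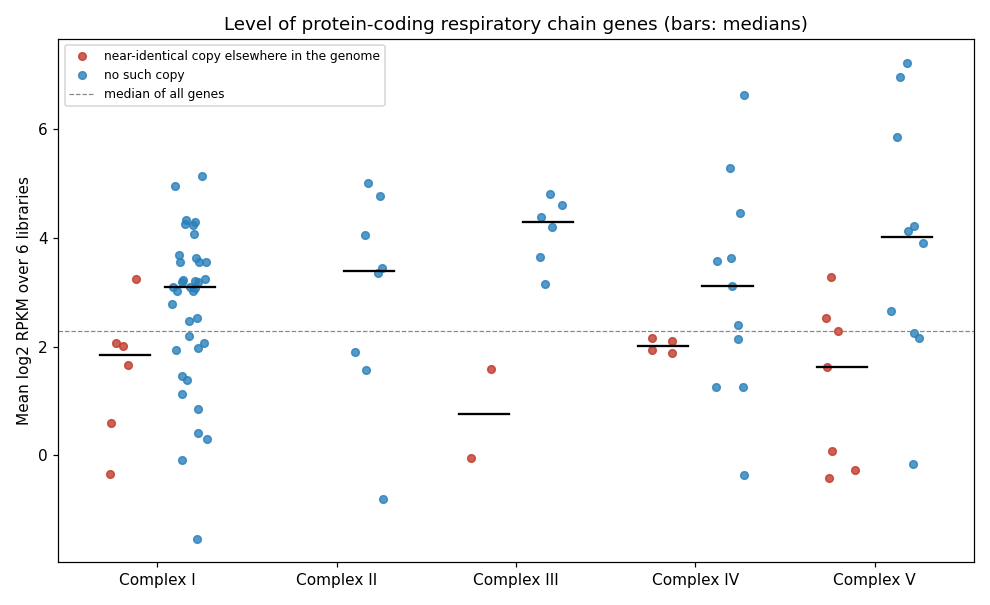
Mean log2 RPKM over the 6 libraries for the protein-coding members of each complex, with members that have a near-identical gene copy elsewhere in their own colour and bars at the medians. Levels run from Ndufaf2 at the low end to Atp5b at 7.23, and the median over all complexes is 1.88 with a copy and 3.20 without.

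Other mitochondrial genes were set beside the members, and in none of these lists did a gene pass the adjusted threshold in limma. The 23 measured assembly factors of complex IV lay mostly above 0 (20 of 23), with a median difference of 0.18 log2 units. Among them Coa7 lay at 0.40 (limma adjusted p = 0.448), Cox19, linked to copper handling, at 0.42 (adjusted p = 0.521) and Coa3 at 0.23 (adjusted p = 0.617). Of the listed complex V genes outside the prefixes, 5 of 5 measured lay above 0 with a median of 0.19. Among them were the ATPase inhibitor Atpif1 at 0.24, Usmg5 at 0.22 and Atpaf2 at 0.18. Complex III assembly factors had a median of 0.15 (5 of 6 above 0) and complex I factors outside the prefixes 0.01 (6 of 10). Mitochondrial ribosomal proteins, which translate the mitochondrially encoded subunits, had a median of 0.13 with 64 of 77 above 0. In this list Mrpl11 lay at 0.32, Mrpl14 at 0.31 and Mrpl32 at 0.32. These lists were also written with results of the data known.

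The citric acid cycle, which feeds the chain with NADH and succinate, had a median difference of 0.07 log2 units with 11 of 17 genes above 0; Mdh2 lay at 0.23 and Idh3g at -0.18. Coenzyme Q synthesis had a median of -0.00 with 6 of 13 above 0, and Coq4 lay at 0.32, Coq2 at -0.25 and Coq8a at -0.20. Carriers and uncoupling proteins had a median of -0.01 with 6 of 13 above 0. In that list Ucp2, an inner membrane carrier that macrophages also express, lay at -0.42 (limma adjusted p = 0.543) and the creatine kinase Ckmt1 at 0.60. Regulators of mitochondrial biogenesis had a median of 0.06 with 10 of 15 above 0, and Myc lay at 0.43, Polrmt, the mitochondrial RNA polymerase, at -0.24 and the coactivator Ppargc1a at 0.36. Ppargc1a had log2 RPKM of 1.89, 2.44 and 2.21 in AZD7507 tumours, against 1.92, 2.07 and 1.46 in Vehicle tumours, with overlap. The ETS subunit Gabpa lay at 0.14 (adjusted p = 0.776) and the factor Nrf1 at -0.09 (adjusted p = 0.881).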

How the data were processed

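The authors deposited 1 table of log2 RPKM values after normalization by cqn; RPKM and cqn stand in the title of that deposited table. BWA 0.7.15-r1140, HTSeq and the builds mm10 and GRCm38 are named in the submitters' processing notes. Per the labels' protocols, libraries were made from total RNA of frozen tumours with ribosomal RNA removed. The annotation release, strand setting and any filter are not given in the sources used here. No counts entered the analysis, so the depth is unknown, and cqn can hide a change in total RNA.

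Symbols and GRCm38 annotation were matched for 16306 of 16344 identifiers. The log2 values were tested with limma 3.58.1 (R 4.3.3; trended, robust variance; 2-sided; Benjamini-Hochberg over all genes; threshold 0.05), AZD7507 minus Vehicle, with no pseudocount or filter, after a check on simulated data. Nothing ties a tumour to a separate animal in the labels, so p-values measure only the spread between these tumours. Replicate numbers follow record order and pair no samples, and no batch is named.

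Members, lists and tests were chosen with earlier results of these data known. Genes named were, per complex, the 3 with the smallest unadjusted p, core subunits, tissue isoforms with their partners, Cox7a2l, the 3 highest and 3 lowest levels, and 3 per other list. Further members are named to account for the whole list and were chosen after their values were seen. The single values of 1 member and 1 gene of another list are not reported here. Copies are matches to the coding sequence of a member in annotated transcripts of genes elsewhere (BLAST 2.17.0). A match needed 95% identity or more over at least 80% of the length of that sequence. Copies outside the annotation were not searched for. For the pseudogene members the whole transcript was used in place of a coding sequence. Alternatives were other variance priors, a minimum mean of 0, pseudocounts of 1 and 0.1 on linear values, quantile normalization, median centring, array weights, and leaving out each library or both acinar-rich libraries. Centring by transcript length and leaving out members with a copy were added once the data had been seen.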

Additional observations from a re-analysis of the deposited data

How the results depend on the processing

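Members higher and members lower stayed at 0 at an adjusted p under 0.05 in limma under every alternative. Of all genes, 3 were higher and 55 lower in the analysis as reported. Higher genes numbered 1 with a constant variance prior, 14 with array weights, 1 without both acinar-rich libraries and 0 with any 1 library left out. Lower genes numbered 143 with array weights, 13 without both acinar-rich libraries and 0 to 14 with any 1 library left out.

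With 1 library left out, median differences (log2 units) ran from 0.12 to 0.18 for all members, 0.12 to 0.20 for complex I, -0.02 to 0.07 for complex II, 0.14 to 0.24 for complex III, 0.17 to 0.27 for complex IV and 0.008 to 0.105 for complex V. With array weights they were 0.10 for complex II and 0.13 for complex V. Without both acinar-rich libraries they were 0.12 for complex II and 0.15 for complex V. Without members that have a copy, complex IV was at 0.31. The causes were not tested.

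Of 33 named members, 22 kept their sign throughout. Sign changes with array weights gave Atp5a1 0.15, Ndufa4l2 0.13, Ndufs1 0.10 and Sdhb 0.023. Without both acinar-rich libraries Atp5a1 was at 0.17, Ndufa4l2 at 0.67, Ndufs1 at 0.10, Sdhb at 0.009 and Cox7a2l at -0.029. Centring by length put Sdhaf3 at 0.007. With 1 library left out, ranges that crossed 0 were -0.11 to 0.10 for Atp5a1, -0.046 to 0.10 for Atp5b, -0.013 to 0.25 for Cox4i1, -0.012 to 0.21 for Cox6b1, -0.10 to 0.29 for Cox7a2l, -0.51 to 0.57 for Ndufa4l2, -0.076 to 0.053 for Ndufs1, -0.13 to 0.001 for Sdha, -0.10 to 0.10 for Sdhaf3, -0.15 to 0.068 for Sdhb and -0.043 to 0.085 for Uqcrc1. No paired analysis was possible because the replicate numbers only follow record order.

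Depth is unknown, so the counting error of values, including those under 1 RPKM, cannot be given.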
